A study of Mus musculus with 18 samples.

Results

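Small nucleolar RNAs and small Cajal body RNAs were followed on expression arrays of mouse bone marrow-derived macrophages, cells grown from marrow of the femur under M-CSF, a macrophage growth factor. The members were all array rows whose gene symbol starts with Snord (65 C/D box RNAs), Snora (34 H/ACA box RNAs) or Scarna (8 Cajal body RNAs). They were 107 of the 24705 rows with exactly 1 symbol. The rule reads symbols alone; it was chosen with earlier results of these data known. After 4 days in medium with serum and M-CSF at 30 ng/mL, the cells received medium with 10% mouse plasma in place of the serum for 48 hours, and RNA was taken on day 6. The plasma came from mice given a Western diet for 8 weeks: wild-type mice (WT, 4 arrays), ApoE-KO mice (ApoE, 5 arrays), ApoE-Stab1-KO mice (AS1, 3 arrays) and ApoE-Stab2-KO mice (AS2, 6 arrays), all labelled C57BL/6J. The donors of AS1 and AS2 plasma therefore lacked apolipoprotein E as well as stabilin-1 or stabilin-2, scavenger receptors of endothelial cells and macrophages. The labels give the knockouts for the plasma donors, so the macrophages' own genes do not check them. The sources used here do not say whether plasma was pooled or whether the arrays of a group came from separate cultures, so the p-values measure the spread between arrays.

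Many C/D box RNAs guide the methyltransferase fibrillarin to ribosomal RNA, where it methylates the ribose, and many H/ACA box RNAs guide the pseudouridine synthase dyskerin. Small Cajal body RNAs carry the same boxes and guide modification of the small nuclear RNAs of the spliceosome. In mammals most of them are cut from the spliced introns of host genes, many of which encode ribosomal proteins or are noncoding, and the mature RNA outlives the intron in a stable particle with its core proteins.

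By position in the mouse gene table, 103 of the 107 members lay inside a gene, without regard to strand, and 4 (Snord118, Snord13, Snord89 and Scarna2) lay in none. The 103 members shared 77 host genes: 31 members lay in 21 ribosomal protein genes and 25 in 18 noncoding genes. Many such hosts are known to start transcription at a run of pyrimidines, and members of 1 host leave the same primary transcript. The start windows of 4 hosts are printed because the results below compare members inside the first 3 and set Snord12 against the row of its host Zfas1. They are Rpl13a (chr7:45128726-45128785, minus strand), host of Snord32a, Snord33, Snord34 and Snord35a; Snhg12 (chr4:132308638-132308697, plus strand), host of Snora16a, Snora44, Snora61 and Snord99; 2410006H16Rik (chr11:62602837-62602896, plus strand), host of Snord49a, Snord49b and Snord65; and Zfas1 (chr2:167062894-167062953, plus strand), host of Snord12, which has no such run. Each window holds 40 bases before and 20 after the annotated start, 5′ to 3′ on the gene's strand, from RefSeq on GRCm38.p6. Capitals mark a run of at least 5 C or T letters that begins with C within 5 bases of the start.
Rpl13a: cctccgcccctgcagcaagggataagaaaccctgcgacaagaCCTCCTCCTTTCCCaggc
Snhg12: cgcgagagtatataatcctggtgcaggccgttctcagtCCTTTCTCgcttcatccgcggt
2410006H16Rik: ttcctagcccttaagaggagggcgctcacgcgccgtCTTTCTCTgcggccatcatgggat
Zfas1: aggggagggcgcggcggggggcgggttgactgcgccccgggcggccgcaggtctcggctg

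The run was searched on the gene's own strand alone. It stood in 25 of 69 windows of host genes (36.2%) and in 6027 of all 32851 windows of the promoter table (18.3%). Among noncoding hosts 12 of 17 windows held it (70.6%), among ribosomal protein hosts 5 of 15 (33.3%) and among other coding hosts 8 of 37 (21.6%). A match describes these letters only.

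The values are deposited log2 expression values on a common distribution, so a change in total RNA per cell is invisible; the median of every array was 4.37. Within each group the arrays correlated at a mean r of 0.994 to 0.997. Signals of different probe sets give no order of abundance, and no probe sequences were used here, so near-identical members such as Snora73a and Snora73b were not told apart by sequence. Whether a row reads the mature small RNA or its host's unspliced transcript was not tested. None of the 7 measured macrophage markers lay under the array median, and the log2 of their summed signals spanned 14.35 to 14.75 over the 18 arrays. Single macrophage markers moved: 5 of 7 fell and 1 rose in ApoE against WT (median -0.40), 5 rose and none fell in AS1 against ApoE (median 0.33), and 4 fell and none rose in AS2 against AS1. Neutrophil markers moved opposite to the members described below: all 10 of 10 rose in AS1 against ApoE and all 10 fell in AS2 against AS1. The log2 of the neutrophil markers' summed signals was 13.70 to 13.94 in AS1, 11.10 to 11.86 in AS2, 11.95 to 13.06 in ApoE and 11.98 to 12.23 in WT. Mast cell, basophil and eosinophil markers moved the same way, with 4 of 5 risen in AS1 against ApoE (median 0.88) and 4 fallen in AS2 against AS1 (median -1.08). Of 4 measured B cell markers 2 rose in AS1 against ApoE and 3 fell in AS2 against AS1, and none moved the other way. In AS2 against AS1 2 of 5 stromal and endothelial markers fell and none rose, while none passed in AS1 against ApoE. Osteoclast markers, 3 of 5, rose in AS2 against AS1, with a median of 1.78. In bulk RNA, fewer cells of a type and less RNA per cell cannot be told apart, and the part of these shifts in the results was not tested.

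The classes separated the 4 plasmas differently. C/D members were lowest with AS1 plasma and highest with AS2 plasma, H/ACA members were low with AS1 plasma and near the ApoE level with AS2 plasma, and Cajal body members as a class followed neither pattern. Each array was summarised by the class median of every member's deviation from its own mean over all arrays. For the C/D class this median was -0.58, -0.57 and -0.83 log2 units on the AS1 arrays and between 0.36 and 0.58 on the 6 AS2 arrays. The WT arrays lay at -0.21, -0.12, -0.13 and 0.19 and the ApoE arrays between -0.11 and 0.04. Thus no AS1 array and no AS2 array overlapped any array of another group in the C/D median.

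For the H/ACA class the AS1 arrays lay at -0.45, -0.29 and -0.31 and the AS2 arrays between -0.01 and 0.25, a range that the ApoE arrays (-0.07 to 0.14) overlapped. For the Cajal body class the AS1 arrays lay at -0.06, -0.04 and -0.04 and the AS2 arrays between -0.26 and -0.06. WT replicate 4 stood above the other 3 WT arrays in all 3 classes, at 0.19, 0.38 and 0.40, and in 13 other small RNA rows, at 0.32. Several comparisons with WT plasma are also given without this array.

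**Figure D1:**
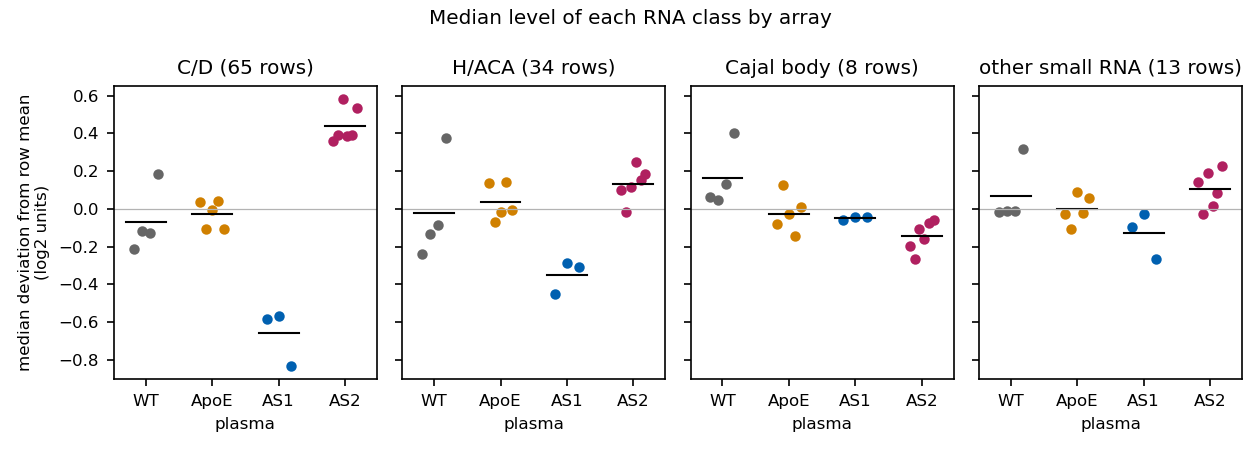
Each point is 1 array: the median over a class of the members' deviations from their mean over 18 arrays (y axis, log2 units), by plasma group (x axis), with black lines at group means. C/D medians of AS1 arrays lie at -0.57 and below and those of AS2 arrays at 0.36 and above; Cajal body medians do not separate these groups.

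In single members the order was the same. The mean with AS1 plasma was the lowest of the 4 groups in 57 of 65 C/D members, 28 of 34 H/ACA members and 3 of 8 Cajal body members. AS1 was lowest and AS2 highest at once in 49 C/D, 17 H/ACA and 3 Cajal body members, together 69 of 107, against 10.8% of all rows tested. These are counts of means without a test.

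**Figure D2:**
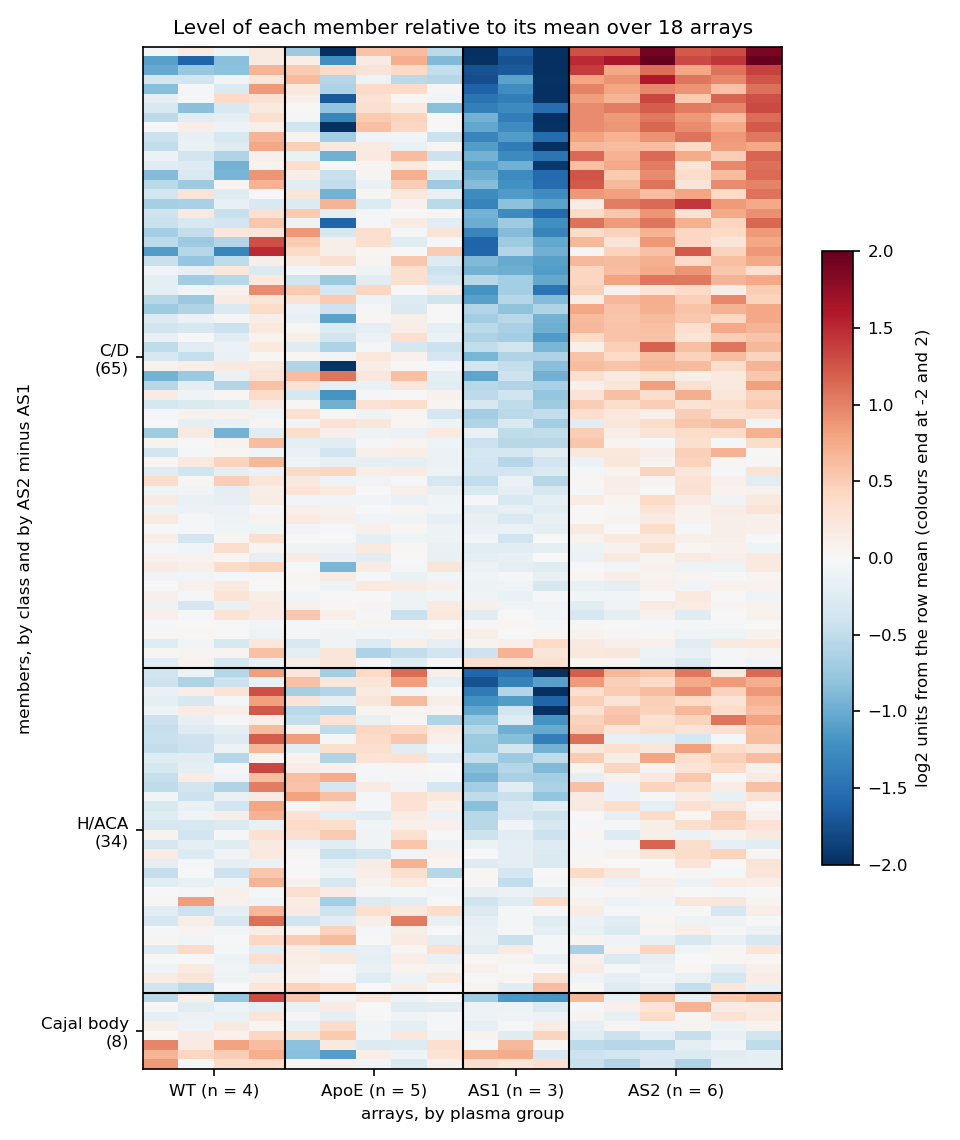
Each row is 1 of the 107 members and each column 1 of the 18 arrays; colour gives the log2 deviation from the member's mean, with members ordered within their class by AS2 minus AS1. The upper C/D and H/ACA rows are blue on the 3 AS1 arrays, the upper C/D rows are red on the 6 AS2 arrays, and lower rows of each class are pale.

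The first comparison asks what plasma without apolipoprotein E does relative to wild-type plasma. Few members passed the test (limma, adjusted p under 0.05 over all rows): 6 rose and 4 fell of 107, against 8.54% and 8.36% of all rows, with a median difference of 0.05 log2 units. Among H/ACA members 3 rose and none fell of 34, among C/D members 3 rose and 1 fell of 65, and among Cajal body members none rose and 3 fell of 8. Snora31, which lies in the gene of the translationally controlled tumor protein Tpt1, rose by 0.74 ± 0.18 log2 units (SE; adjusted p = 0.00587). It read 5.88, 5.67, 5.87 and 6.16 with WT plasma and 6.89, 6.52, 6.54, 7.14 and 6.12 with ApoE plasma. The groups overlapped by 1 array, since WT replicate 4 stood above ApoE replicate 5.

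Snord14e, in the chaperone gene Hspa8, fell by 0.48 ± 0.11 (adjusted p = 0.00628), and its 4 WT values, 9.42, 9.58, 9.83 and 10.05, all exceeded the 5 ApoE values of 9.19 to 9.31. Snord19, in the nucleostemin gene Gnl3, rose by 0.43 ± 0.11 (adjusted p = 0.00824) at group means of 3.82 and 4.26, under the array median. These 3 calls held under every alternative tried. Snora33, inside Rps12, rose by 0.44 ± 0.12 (adjusted p = 0.0121), but with ApoE replicates 2 and 5 both left out the adjusted p was 0.0505. Snord57 rose by 0.58 ± 0.16 (adjusted p = 0.0145) but not without WT replicate 2 (adjusted p = 0.0608), and Snord65 by 0.85 ± 0.24 (adjusted p = 0.0218) but not without WT replicate 1 or 2 or ApoE replicate 2 (0.0941, 0.0746 and 0.0566). Snora28 rose by 0.49 ± 0.15 (adjusted p = 0.0316), a call lost without WT replicate 1, 2 or 3 or ApoE replicate 1 or 2 (0.0536, 0.118, 0.0711, 0.0842 and 0.0756). Without WT replicate 1 the count of members called was 5 rather than 10, and with the WT and ApoE arrays fitted alone it was 4. Cycling cell markers, 4 of 4 measured, rose in the same comparison, with a median of 2.16 log2 units. All 4 also rose in AS1 against WT (median 2.52), where more members fell than rose. In AS1 against ApoE 2 of them rose and none fell (median 0.36), where no member rose. The part of these markers was not tested.

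With AS1 plasma, whose donors also lacked stabilin-1, many members were lower than with ApoE plasma: 47 fell and none rose in AS1 against ApoE, against 8.8% and 7.74% of all rows. The fallen members were 32 of 65 C/D (class median -0.57), 14 of 34 H/ACA (-0.46) and 1 of 8 Cajal body RNAs (-0.01), and the median of all members was -0.48. Of the 107 members 28 passed and were at least 2-fold lower, against 138 of all 24705 rows. The largest fall was in an H/ACA RNA, Snora16a, with values of 8.70, 7.79, 8.87, 9.59 and 8.57 with ApoE plasma and 6.88, 6.99 and 5.78 with AS1 plasma. Every AS1 value of Snora16a lay below every ApoE value, and it fell by 2.15 ± 0.38 (adjusted p = 0.000575).

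Among C/D members Snord16a, inside the ribosomal protein gene Rpl4, read 8.57, 8.43, 8.30, 8.45 and 7.55 with ApoE plasma and 6.30, 6.37 and 5.82 with AS1 plasma. It fell by 2.09 ± 0.31 (adjusted p = 0.000124), with no overlap. Snord49b, inside the noncoding gene 2410006H16Rik, fell by 1.88 ± 0.32 (adjusted p = 0.000477), and Snord15a, inside Rps3, by 1.67 ± 0.23 (adjusted p = 7.53e-05). Among H/ACA members Snora31 fell by 1.74 ± 0.19 (adjusted p = 9.05e-06) and Snora62, inside Rpsa, by 1.53 ± 0.21 (adjusted p = 6.59e-05). The 3 AS1 values of Snora31 (4.56, 4.94 and 5.21) also lay below its 4 WT values. All these calls held under every alternative.

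Snord12, inside the noncoding gene Zfas1, read 5.98, 4.51, 7.28, 7.34 and 6.19 with ApoE plasma and 4.39, 5.06 and 3.84 with AS1 plasma. It fell by 1.83 ± 0.46 (adjusted p = 0.00944), but ApoE replicate 2 lay within the AS1 range, and the call was lost without AS1 replicate 3 (adjusted p = 0.065). Snord1b, inside Snhg16, fell by 1.73 ± 0.40 (adjusted p = 0.00539) and its AS1 values, 4.01, 4.24 and 3.84, lay under the array median. Without AS1 replicate 3 the count of fallen members was 32, with 1 risen. Snord35a and Snord61 fell by 1.45 each, and the other fallen members outside those named by the rule, 24 in number, fell by 0.23 to 1.40.

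With the same 3 AS1 arrays set against WT plasma, 33 members fell and 1 rose, against 4.64% and 4.84% of all rows. The fallen were 25 C/D and 8 H/ACA members, and no Cajal body member passed. Snord12 fell by 2.34 ± 0.48 (adjusted p = 0.004): its WT values of 6.67, 6.87, 6.62 and 6.90 lay close together and above all 3 AS1 values. Snora16a fell by 1.86 ± 0.40 (adjusted p = 0.00516), Snord68, inside Rpl13, fell by 1.77 ± 0.36 (adjusted p = 0.00345) and Snora73a, inside Snhg3, fell by 1.76 ± 0.33 (adjusted p = 0.00201). Leaving out AS1 replicate 3, the lowest AS1 array in the C/D median, left 22 members called, 21 of them fallen.

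The member that rose was Snord23, inside the nucleolar protein gene Nop53. It read 8.33, 8.64, 8.22 and 8.42 with WT plasma and 8.87, 8.86 and 8.86 with AS1 plasma, a rise of 0.46 ± 0.11 (adjusted p = 0.00937) without overlap. It was also the 1 C/D member that fell in AS2 against AS1, by 0.38 ± 0.10 (adjusted p = 0.008), and its host Nop53 fell by 0.42 there (adjusted p = 0.00387).

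With AS2 plasma, whose donors also lacked stabilin-2, many members were higher than with ApoE plasma. In AS2 against ApoE 34 rose and 1 fell, against 7.59% and 8.02% of all rows, with a median over all members of 0.26 log2 units. Of the members 13 rose at least 2-fold, against 166 of all 24705 rows, and none fell that far, against 134. The risen were 30 of 65 C/D members (class median 0.41) and 4 of 34 H/ACA members (0.04), and the fallen member was Scarna9. The difference in share between the classes was not tested. Snord12 rose by 1.93 ± 0.38 (adjusted p = 0.00136) and Snord1b by 1.93 ± 0.33 (adjusted p = 0.00041). For Snord1b the ApoE values were 6.11, 4.76, 6.15, 6.71 and 5.10, and the lowest, median and highest AS2 values were 7.31, 7.55 and 8.18. Snord12 had AS2 values of 7.95, 8.00 and 8.63 in the same order, and neither RNA's AS2 arrays overlapped its ApoE arrays.

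Snord42a and Snord42b, both inside Rpl23a, rose by 1.32 ± 0.22 (adjusted p = 0.000291) and 1.31 ± 0.20 (adjusted p = 0.000138). The 5 ApoE values of Snord42a, 9.89, 8.69, 9.15, 8.71 and 8.68, lay below its AS2 values of 10.05, 10.27 and 10.85 (lowest, median and highest). Snord73b, inside Rps3a1, rose by 1.14 ± 0.17 (adjusted p = 0.000121), Snord99 by 1.24 ± 0.26 (adjusted p = 0.00264) and Snord68 by 1.23 ± 0.28 (adjusted p = 0.00483). Snord100, inside Rps12, rose by 1.08 ± 0.27 (adjusted p = 0.0082). Snord110, inside Nop56, rose by 1.34 ± 0.38 (adjusted p = 0.0193), and its ApoE values ran from 7.42 in replicate 2 to 10.42. With the ApoE and AS2 arrays fitted alone Snord110 did not pass (adjusted p = 0.0593).

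ApoE replicate 2 was the lowest ApoE array for several of these RNAs. Without both ApoE replicates 2 and 5, 23 members were called, 22 of them risen, of which 21 were C/D. The largest of the 4 H/ACA rises, Snora73a at 0.84 ± 0.26 (adjusted p = 0.0382), was lost without ApoE replicate 1, 2 or 4 (adjusted p = 0.108, 0.0982 and 0.0521) or without any of the AS2 replicates 2 to 6 (0.0547, 0.0638, 0.0829, 0.0514 and 0.0799). Snora16a, Snora31 and Snora62, which fell most with AS1 plasma among H/ACA members, did not pass in AS2 against ApoE. Their differences were 0.57 ± 0.31 (adjusted p = 0.31), 0.33 ± 0.16 (adjusted p = 0.222) and 0.21 ± 0.18. Osteoclast markers rose in this comparison, 3 of 5 with a median of 1.18, and cycling cell markers, 4 of 4 with a median of 0.96; their part was not tested.

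Over both comparisons with ApoE plasma, which share the 5 ApoE arrays, 22 members fell with AS1 and rose with AS2: 21 C/D members and Snora73a. The joint patterns of this paragraph were counted for members alone, so no share of all rows stands beside them. Of these 22, the calls of both comparisons held under every alternative for 9, all of them C/D, among them Snord1b, Snord42a, Snord42b and Snord73b. Without AS1 replicate 3, 17 of the 22 falls were called, and without both ApoE replicates 2 and 5, 13 of the 22 rises. In AS2 against ApoE the rise of Snord49b was lost in 14 of 22 alternatives and that of Snord57 in 10, and in AS1 against ApoE Snora73a did not pass without AS1 replicate 3 (adjusted p = 0.152). A further 25 fell with AS1 and did not pass with AS2, of which 11 were C/D and 13 H/ACA members and 1 was Scarna6. Another 12 rose with AS2 and did not pass with AS1, 9 of them C/D and 3 H/ACA. In none of the 6 comparisons did 29 members pass, 13 C/D, 14 H/ACA and 2 Cajal body RNAs.

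Against WT plasma AS2 plasma gave 40 risen and 4 fallen members, against 8.65% and 9.2% of all rows. The risen were 35 C/D (class median 0.66), 4 H/ACA (0.14) and 1 Cajal body member, and all 4 fallen members were Cajal body RNAs. Snord1b rose by 2.55 ± 0.36 (adjusted p = 4.2e-05), Snord16a by 1.56 ± 0.27 (adjusted p = 0.000433) and Snord42b by 1.40 ± 0.22 (adjusted p = 0.000122). The 4 WT values of Snord1b, 4.90, 4.38, 5.14 and 6.16, all lay under the AS2 values. Snora31 rose by 1.07 ± 0.17 (adjusted p = 0.000152). Without WT replicate 4 the counts were 49 risen and 2 fallen, and 11 H/ACA members were called rather than 4.

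The AS1 against WT and AS2 against ApoE contrasts have no array in common and were set beside each other. Members lower with AS1 than WT plasma tended to be higher with AS2 than ApoE plasma: Pearson's r was -0.73 over the 65 C/D members and -0.59 over the 34 H/ACA members, against -0.18 over all 24705 rows. These are descriptions across rows of the same arrays, and several members share a host.

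**Figure D3:**
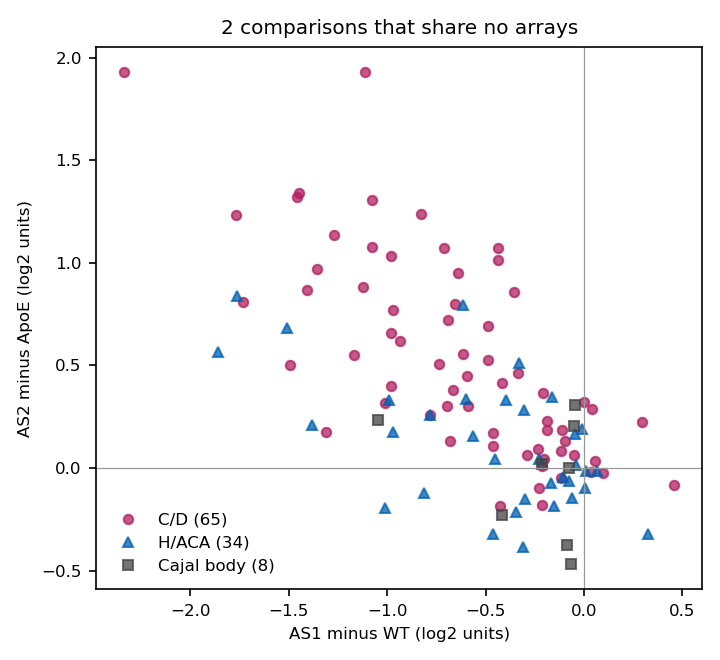
Each point is 1 member, with its AS1 minus WT difference on the x axis and its AS2 minus ApoE difference on the y axis (log2 units), by class. C/D members extend to the upper left, up to Snord12 at -2.34 and 1.93, while H/ACA members extend to the left with smaller rises.

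The widest contrast was between the plasmas of the stabilin double knockouts. In AS2 against AS1 70 members were higher and 2 lower, against 11.5% and 10.6% of all rows. The higher members were 51 of 65 C/D, 17 of 34 H/ACA and 2 of 8 Cajal body RNAs, and the class medians were 1.23, 0.43 and -0.20. At least 2-fold higher were 48 members, against 250 of all 24705 rows, and none was that much lower, against 272. Snord12 was higher by 3.76 ± 0.45 log2 units (adjusted p = 6.69e-06) and Snord1b by 3.66 ± 0.39 (adjusted p = 2.07e-06). All 3 AS1 values of Snord1b and that of Snord12 on AS1 replicate 3 lay under the array median, near the lowest values of the table, so no fold is given for them. Snord16a was 7.81-fold higher (2.96 ± 0.30, adjusted p = 1.21e-06) and Snora16a 6.59-fold (2.72 ± 0.37, adjusted p = 2.62e-05). For each of these 4 RNAs the lowest AS2 array stood above the highest AS1 array. All 4 calls held under every alternative.

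Among the members with the highest mean signal, Snord82, inside the nucleolin gene Ncl, had group means of 11.93, 11.88, 11.72 and 11.70 in WT, ApoE, AS1 and AS2 and passed in no comparison; its AS2 against AS1 difference was -0.01 ± 0.15. Snord32a, the member with the highest mean signal, read 11.87, 11.68 and 11.48 with AS1 plasma and 12.49, 12.61 and 12.70 with AS2 plasma (lowest, median and highest), a difference of 0.93 ± 0.21 (adjusted p = 0.00269). At the other end, 21 members had a mean at or under the array median of 4.37, and 8 of those were higher in AS2 than AS1, 7 C/D members and Scarna8. In AS1 against ApoE 4 of the 21 fell, and in AS2 against ApoE none passed. Calls at low signal were few in the whole table. Of all 2847 rows higher in AS2 than AS1, 2651 had a mean over the array median. The same held for 2107 of the 2175 rows fallen in AS1 against ApoE. In AS2 against ApoE it held for 1750 of 1876 risen and 1867 of 1981 fallen rows.

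**Figure D4:**
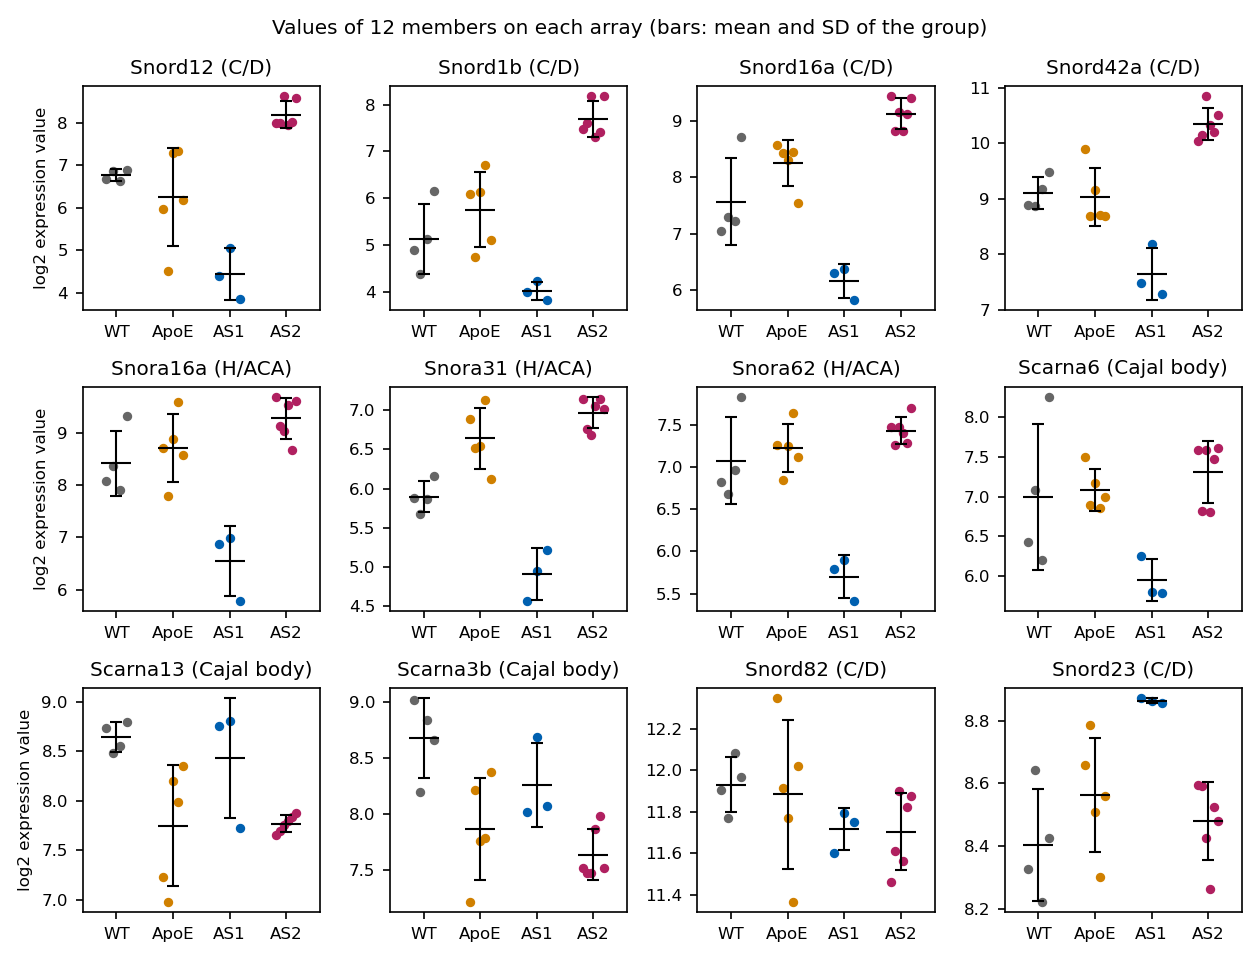
Log2 expression values of 12 members on each array, by plasma group, with the mean and SD of the group. By group mean, Snord12, Snord1b, Snord16a and Snord42a are lowest in AS1 and highest in AS2, the 3 H/ACA members are lowest in AS1, Scarna13 and Scarna3b are highest in WT, and Snord82 runs from 11.70 to 11.93; each panel has its own y axis.

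The Cajal body RNAs had 5 members with a mean signal over the array median, and 4 of these fell in AS2 against WT. Scarna3b, inside Dcaf5, read 9.02, 8.20, 8.84 and 8.66 with WT plasma and 7.47, 7.52 and 7.98 (lowest, median and highest) with AS2 plasma, a fall of 1.04 ± 0.21 (adjusted p = 0.00136) without overlap. Scarna13, inside the noncoding gene Snhg10, fell by 0.88 ± 0.24 (adjusted p = 0.0158), from WT values of 8.74, 8.48, 8.55 and 8.80 to at most 7.88; without WT replicate 4 its adjusted p was 0.0514. Scarna2, which lay in no annotated gene, fell by 0.79 ± 0.13 (adjusted p = 0.000289) and Scarna9, inside Cep295, by 0.46 ± 0.13 (adjusted p = 0.0193). The Scarna9 call was lost without WT replicate 4 (adjusted p = 0.0849) and with a block for the replicate number (0.107).

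Scarna13, Scarna3b and Scarna2 had already fallen in ApoE against WT, by 0.89 ± 0.25, 0.81 ± 0.22 and 0.42 ± 0.14 (adjusted p = 0.0188, 0.0132 and 0.0479). These calls were less firm: without WT replicate 1 the adjusted p were 0.0513, 0.0553 and 0.193. Those of Scarna13 and Scarna2 were also lost without WT replicate 4 (0.0564 and 0.0939) and without ApoE replicate 1 (0.0538 and 0.0681), and that of Scarna2 without ApoE replicate 2, 3 or 4 or WT replicate 3 (0.0532, 0.082, 0.12 and 0.0876). Scarna2 was lower in AS2 than AS1 by 0.70 ± 0.15 (adjusted p = 0.00162), its AS1 values of 10.14, 10.03 and 10.12 all above its AS2 values of 9.17 to 9.60. Scarna9 fell in AS2 against ApoE by 0.47 ± 0.12 (adjusted p = 0.0124), a call lost with a block for the replicate number (0.0684).

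Scarna6, inside the autophagy gene Atg16l1, had the order of most C/D members: it fell by 1.14 ± 0.35 in AS1 against ApoE (adjusted p = 0.0302) and was 1.37 ± 0.33 higher in AS2 than AS1 (adjusted p = 0.00551). The fall was lost without AS1 replicate 2 or 3 or ApoE replicate 1 or 3 (adjusted p = 0.101, 0.109, 0.0699 and 0.0548). With a block for the replicate number both Scarna6 calls were lost (adjusted p = 0.115 and 0.0525). Scarna8, near the floor at means of 3.95 to 4.34, was higher in AS2 than AS1 by 0.39 ± 0.12 (adjusted p = 0.0243); without AS1 replicate 1 or 3 this call was lost (0.0534 and 0.125). It was also the Cajal body member that rose in AS2 against WT, by 0.35 ± 0.11 (adjusted p = 0.0362), a call lost without WT replicate 2, 3 or 4 or AS2 replicate 3 (0.1, 0.0698, 0.0952 and 0.0657). Scarna3a and Scarna10 passed in no comparison at means of 3.61 to 3.91.

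Inside a shared host some members passed the test and others did not. Inside Rpl13a, Snord35a had AS1 values of 7.87, 7.42 and 6.62 and AS2 values of 9.43, 9.72 and 9.94 (lowest, median and highest), a difference of 2.42 ± 0.32 (adjusted p = 2.34e-05). Snord33 was 1.32 ± 0.19 higher in AS2 than AS1 (adjusted p = 4.92e-05) and Snord32a 0.93 ± 0.21. Snord34 of the same gene read 9.61, 9.54 and 9.48 with AS1 plasma and 9.63, 9.70 and 9.93 with AS2 plasma, and its difference of 0.19 ± 0.18 did not pass (adjusted p = 0.561).

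Inside Snhg12, Snora16a and Snord99 were higher in AS2 than AS1 by 2.72 ± 0.37 and 1.86 ± 0.31 (adjusted p = 2.62e-05 and 0.000207). Snora44 and Snora61 of that host differed by 0.09 ± 0.29 and 0.09 ± 0.20 (adjusted p = 0.903 and 0.851); Snora44 read 6.61, 6.77 and 6.57 with AS1 plasma and 6.61, 6.73 and 6.85 with AS2 plasma. Snord34, Snora44 and Snora61 were named after their values were seen, as the remaining members of these hosts. The differences between members of a host were not tested. In 2410006H16Rik all 3 members fell in AS1 against ApoE, with differences of -1.25 to -1.88.

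For the 83 members with a measured host the median difference in AS1 against ApoE was -0.55, and for their 63 hosts -0.06. Of the 63 hosts 18 fell and 4 rose there, against 8.8% and 7.74% of all rows. In AS2 against ApoE the medians were 0.23 and 0.02, with 9 hosts risen and 7 fallen, against 7.59% and 8.02% of all rows. In AS2 against AS1 they were 0.63 and 0.10, with 27 hosts risen and 6 fallen, against 11.5% and 10.6%. In ApoE against WT the medians of 0.06 and 0.07 lay close, with 19 hosts risen and 2 fallen, against 8.54% and 8.36%. There Gnl3, the host of Snord19, rose by 1.31 and Snord19 by 0.43. In AS2 against WT the medians were 0.22 and 0.08, and 22 hosts rose and 5 fell, against 8.65% and 9.2%. In AS1 against WT they were -0.43 and -0.02, with 3 hosts risen and 3 fallen, against 4.84% and 4.64%. There the 29 fallen members with a measured host lay in 23 hosts, none of which passed. Of the members that fell in AS1 against ApoE 40 lay in 31 measured hosts, of which 12 fell and none rose. The 25 risen in AS2 against ApoE lay in 21 measured hosts, of which 2 rose and 2 fell. The 52 higher in AS2 than AS1 lay in 38, of which 18 rose and 2 fell. The shares of all rows in this paragraph include rows at or under the array median. Of the 12362 rows with a mean over it, 1821 rose and 2107 fell in AS1 against ApoE. The counts were 1750 and 1867 in AS2 against ApoE and 2651 and 2404 in AS2 against AS1. In ApoE against WT they were 1985 and 1935, in AS1 against WT 1069 and 1079, and in AS2 against WT 1987 and 2135.

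Zfas1, the host of Snord12, had means of 6.84, 6.59, 6.89 and 6.77 in WT, ApoE, AS1 and AS2, and its AS2 against AS1 difference was -0.12 (adjusted p = 0.525). 2410006H16Rik was lower in AS2 than AS1 by 0.53 (adjusted p = 0.00107) while its member Snord49b was 2.69 ± 0.31 higher (adjusted p = 5.42e-06). Nop56, which encodes a core protein of C/D particles and hosts Snord57 and Snord110, was 0.67 higher (adjusted p = 5.76e-07) and its members 1.62 and 2.41 higher. Across the 76 C/D and H/ACA members with a measured host, member and host differences in AS2 against AS1 correlated at r = -0.08, a description over rows that share arrays and hosts.

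Some host rows read low signals: 9 of 63 had a mean at or under the array median, among them 5 of the 13 measured ribosomal protein hosts, whose messenger RNAs are abundant in most cells. Without those 9, 12 of 28 hosts fell with their members in AS1 against ApoE and 17 of 34 rose with them in AS2 against AS1. Some of the hosts kept read little above the array median, such as Rpl13, the host of Snord68, at group means of 4.44 to 4.61. By host type, AS2 against AS1 gave 26 of 31 members higher in ribosomal protein hosts (median 1.32), 16 of 25 in noncoding hosts (1.01) and 25 of 47 in other coding hosts (0.37); the difference between host types was not tested. RNA length and the AS2 against AS1 difference correlated at r = -0.09 over C/D and 0.32 over H/ACA members, and mean signal and that difference at 0.28 and 0.33, as descriptions over rows of the same arrays.

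**Figure D5:**
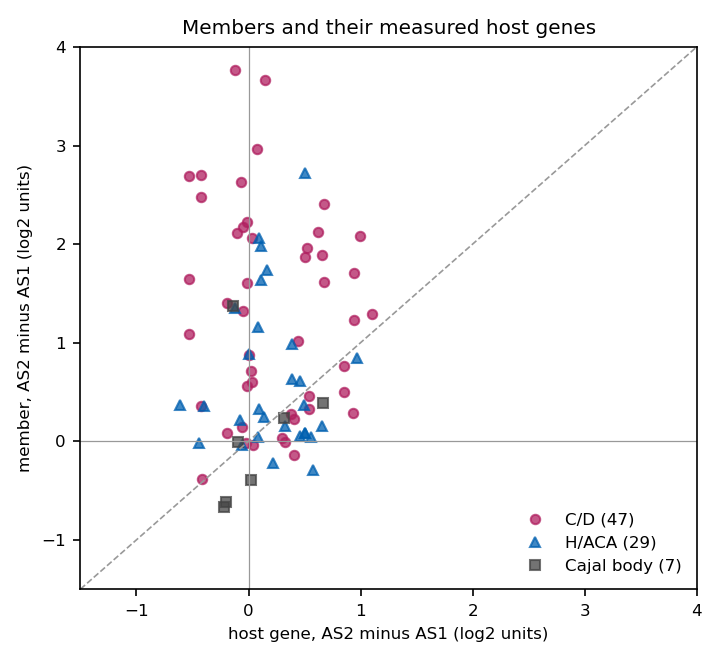
Each point is 1 member with a measured host: the host's AS2 minus AS1 difference on the x axis and the member's on the y axis (log2 units), by class, with a dashed line where both are equal. Most C/D members lie above the line, including Snord12 at 3.76 with its host Zfas1 at -0.12.

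Genes that build and process these particles were taken from lists. The shares of all rows to read the counts against are 8.8% fallen in AS1 against ApoE and 11.5% risen in AS2 against AS1. In AS2 against ApoE they are 7.59% risen and 8.02% fallen. Most listed genes read over the array median. Of the 12362 rows with a mean over it, 2107 fell in AS1 against ApoE and 2651 rose in AS2 against AS1. In AS2 against ApoE 1750 of these rows rose and 1867 fell. Of 3 measured core proteins of C/D particles, 2 fell in AS1 against ApoE, Nop58 by 0.96 ± 0.11 (adjusted p = 1.48e-05) and Nop56 by 0.38 ± 0.07 (adjusted p = 0.000513), and all 3 were higher in AS2 than AS1. Nop56 and Nop58 also rose in ApoE against WT, by 0.41 and 0.67. Of 4 core proteins of H/ACA particles, Nhp2 fell by 0.59 ± 0.15 (adjusted p = 0.00843) and Dkc1, which encodes dyskerin, by 0.48 ± 0.14 (adjusted p = 0.021) in AS1 against ApoE; the call of Nhp2 was lost without AS1 replicate 3 (adjusted p = 0.076) and that of Dkc1 without AS1 replicate 1 (0.194). Dkc1 rose in AS2 against ApoE by 0.56 ± 0.11 (adjusted p = 0.00174), and 3 of the 4 were higher in AS2 than AS1.

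Of 9 assembly factors 6 fell in AS1 against ApoE, among them Nufip1 at -0.64 ± 0.07 (adjusted p = 1.13e-05) and Ruvbl1 at -0.75 ± 0.17 (adjusted p = 0.00397; with the AS1 and ApoE arrays fitted alone, 0.0518); in AS2 against ApoE 1 fell and none rose. Of 8 debranching, trimming and decay enzymes 4 fell with AS1, among them the exosome nucleases Dis3 (-0.51 ± 0.08, adjusted p = 0.000276) and Exosc10 (-0.47 ± 0.08, adjusted p = 0.000355), and 2 fell with AS2 against ApoE. Of 12 RNA polymerase I and nucleolar genes 5 fell with AS1, among them the initiation factor Rrn3 at -0.58 ± 0.08 (adjusted p = 0.000108), and none passed in AS2 against ApoE. Of 18 listed noncoding snoRNA host genes, of which 11 host a member here, 6 fell with AS1, among them Snhg1 at -0.74 ± 0.10 (adjusted p = 7.56e-05) and Snhg6 at -1.02 ± 0.15 (adjusted p = 0.000116), and none passed in AS2 against ApoE. Of the 15 measured noncoding genes that do hold members, 4 fell with AS1. In AS2 against ApoE 1110038B12Rik, the host of Snord52, rose by 0.42 (adjusted p = 0.0014) and 2410006H16Rik fell by 0.33 (adjusted p = 0.0172). The call of 2410006H16Rik was lost without ApoE replicate 3 or 5 (adjusted p = 0.0544 and 0.0542) and with a block for the replicate number (0.0534). Of 6 Cajal body and cap or export genes, Nolc1 fell with AS1 by 0.61 ± 0.13 (adjusted p = 0.00283) and Tgs1, the cap hypermethylase, fell with AS2 against ApoE by 0.22 ± 0.06 (adjusted p = 0.00939).

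Other small noncoding RNAs were mixed. Of 13 such rows, 3 fell and 1 rose in AS1 against ApoE, against 8.8% and 7.74% of all rows. In AS2 against AS1 4 were higher and 1 lower, against 11.5% and 10.6%. Rmrp fell by 0.75 in AS1 against ApoE (adjusted p = 0.00822) and was 0.79 higher in AS2 than AS1 (adjusted p = 0.00321). Terc was 0.57 higher in AS2 than AS1 (adjusted p = 0.000385). Rnu11 went the other way: it rose by 0.44 in AS1 against ApoE (adjusted p = 0.0203) and was 0.63 lower in AS2 than AS1 (adjusted p = 0.000712). Rny1, a Y RNA transcribed by RNA polymerase III and inside no snoRNA host, had means of 8.31, 8.81, 6.95 and 9.49 in WT, ApoE, AS1 and AS2, with differences of -1.87 (AS1 against ApoE, adjusted p = 0.00101) and 2.54 (AS2 against AS1, adjusted p = 2.31e-05). Rnu3a, a U3 RNA of the C/D type that carries another symbol, had means of 5.91, 5.88, 4.60 and 6.28 and fell by 1.28 with AS1 against ApoE (adjusted p = 0.00738; without AS1 replicate 3, 0.0644). Rn7sk lay between means of 13.5 and 13.6 and passed in no comparison. The rows named in this paragraph were chosen after their values were seen. Of 543 microRNA gene rows 11 fell and 28 rose in AS1 against ApoE, with a median of 0.01, against 8.8% and 7.74% of all rows.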

How the data were processed

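Expression was measured in 18 samples of total RNA, extracted with a kit for small RNA and hybridised as biotin-labelled cRNA to Affymetrix arrays, per the labels' protocols. The deposited log2 values came from RMA (background correction, equalised distributions, probe summary), per the submitters' processing notes; the sources used here do not give its version or the probe set definition. Depth has no meaning for arrays; their number limits the precision. Platform annotation gave 24705 of 25428 rows exactly 1 symbol, and the other 723 rows were left out.

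One limma 3.58.1 model (R 4.3.3) with 4 group means was fitted to all named rows, leaving 14 residual degrees of freedom. P-values were two-sided and Benjamini-Hochberg adjusted over all 24705 rows at a threshold of 0.05; errors are standard errors of that model. The fit was tested on simulated data. The members, lists and rules were chosen with earlier results of these data known. Text names up to 10 members per direction with the largest difference (4 in the contrasts AS1 against WT, AS2 against WT and AS2 against AS1), every Scarna member, the 5 with the highest mean, the 5 with the widest range of group means, and up to 3 genes with the smallest p per list. The host was the smallest gene holding a member (RefSeq, GRCm38.p6); the table gives no strand, so the planned same-strand rule was not applied. Alternatives covered rows tested, a low-signal filter at the 40th percentile, scaling, variance model, array weights, samples in the fit, leaving out single arrays, and a block for the replicate number.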

Additional observations from a re-analysis of the deposited data

Results flagged for a closer look

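In groups of 4 to 6 arrays, single arrays that stood far from the rest of their group (Dixon's gap test) were looked for among the named members and the class medians. Of 123 groups tested, 10 held such an array, and chance gives about 5%. WT replicate 4 stood above the other WT arrays in Snord16a, at 8.72 against 7.04 to 7.29, in Snord15b, at 10.88 against 10.24 to 10.34, in Snord99, at 8.57 against 7.58 to 7.71, and in Scarna10, at 3.96 against 3.54 to 3.59. ApoE replicate 2 stood below the other ApoE arrays in Snord32a, at 11.22 against 12.23 to 12.55, in Snord33, at 10.51 against 11.43 to 11.70, in Snord68, at 6.22 against 7.84 to 8.18, and in Snord99, at 6.42 against 7.80 to 8.18. Snord16a read 7.55 on ApoE replicate 5 against 8.30 to 8.57 on the others, and Snord100 read 12.49 on AS2 replicate 5 against 12.70 to 12.81.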

How the results depend on the processing

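The number of members called in ApoE against WT was 10 and ranged from 5 (without WT replicate 1) to 12 with 1 array left out; with the 2 groups fitted alone it was 4. For AS1 against ApoE the count of 47 ranged from 33 to 55, for AS2 against ApoE 35 from 28 to 34, for AS1 against WT 34 from 22 (without AS1 replicate 3) to 35, for AS2 against WT 44 from 30 to 51 and for AS2 against AS1 72 from 65 to 73. Without both ApoE replicates 2 and 5, 23 members were called in AS2 against ApoE. With the replicate block the 6 counts were 10, 38, 26, 26, 32 and 65; same-numbered arrays of different groups correlated at -0.21 to 0.13 in their deviations (median -0.01 over 22 pairs), so the numbers were not taken as pairs. Of 127 called results of the 38 members named by the rule, 81 held under every alternative; 182 of 2462 values lost the call and 0 changed direction. Of 101 results not called, 88 of 1966 values passed. Of 66 called results of 19 of the other named genes, 46 held under every alternative. Class medians per array moved by less than the spread in 54 of 54 rescaled values. Members near the array median of 4.37 leave little room for a fall to show.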
